A study of Homo sapiens with 3 samples.

Results

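The ZNF genes of chromosome 19 encode zinc finger proteins. They were taken as the rows of the deposited expression table on chromosome 19 whose symbol is ZNF followed by a number and at most 1 letter, and were selected on their measured level, with 1 FPKM or more required in any 1 of the 3 libraries. FPKM is the number of fragments scaled by transcript length in kb and by mapped fragments in units of 1000000. The table's header names no unit, and FPKM was inferred from the program used and from the values. Of 248 such rows, which carry 247 distinct symbols, 205 met this limit and 43 did not, out of 31402 rows in the table. Because members were chosen by these levels, the fact that a member is expressed is not a result. Of the members, 184 had at least 1 FPKM in all 3 libraries, 14 in 2 libraries and 7 in 1 library, and these 7 had to be higher in that library. Just outside the limit lay ZNF230, with a highest level of 0.984 FPKM, and ZNF573, with 0.959. Just inside lay ZNF225, with 1.20 FPKM, and ZNF793, with 1.22. Of the 43 rows left out, 10 were listed at 0 in every library.

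The libraries came from HCC827, an established line of human non-small cell lung cancer, transduced with the ClonTracer library of DNA barcodes and kept as a polyclonal pool, which all 3 populations shared. The vehicle population was kept in 0.1% DMSO for 4 days, and the erlotinib-resistant population grew out over 47 days in 2 µM erlotinib, which blocks the kinase of the EGF receptor. To obtain the dual-resistant population, erlotinib-resistant cells were held for another 10 days in both drugs, erlotinib at 2 µM and crizotinib, which blocks the MET kinase, at 0.2 µM. Each group had 1 library, so no difference has an error estimate or a test, and drug, time and selection cannot be told apart.

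The summed FPKM ranged from 494817 to 596084 per library, and 12143 to 12428 genes reached 1 FPKM. By an estimate from the lowest values of single-exon genes, 1 FPKM in a transcript of 1 kb stood on about 67.6 fragments in vehicle, 47.0 in erlotinib-resistant and 43.1 in dual-resistant cells. All 8 epithelial and lung markers examined were at 1 FPKM or more in each library, with a summed level of 5235 FPKM in vehicle, 5322 in erlotinib-resistant and 2330 in dual-resistant cells. None of the 4 leukocyte or 3 endothelial markers reached 1 FPKM, and 1 or 2 of the 4 fibroblast markers did, with a summed level of 2.48 to 6.72 FPKM. Their part in the results below was not tested.

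Many zinc finger proteins of this chromosome carry a KRAB domain next to an array of fingers that binds DNA. The KRAB domain recruits the corepressor TRIM28, which brings in the histone methyltransferase SETDB1 and HP1 proteins, and the best known targets are transposable elements. The genes arose by repeated tandem duplication and lie in clusters along both arms, so neighbours share sequence in their exons and in their promoters.

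Position clusters were drawn from all 248 rows, whatever their level, with a new cluster wherever a gap exceeded 500 kb and at least 3 rows to a cluster. This gave 11 clusters, C1 to C11 in order from the short-arm end, which held 196 of the 205 members. C4 (chromosome 19, 19779663 to 24312654, GRCh37) is the longest, at 4.53 Mb, with 24 members of 34 rows. C9 (52074531 to 54083523) held 40 members of 41 rows, C10 (55987699 to 57183123) 16 of 17 and C11 (57702868 to 58992597) 38 of 42. C2 (8575462 to 9879410) held 13 of 14 and C3 (11594242 to 12740676) 18 of 27. C6 (36673187 to 38307940) held 21 of 27 and C8 (44029649 to 45004574) 17 of 22. C1, C5 and C7 held 3, 4 and 2 members.

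The promoters were then searched for sequence shared within a cluster. RefSeq promoters of 300 bases (250 before and 50 after the gene's start, GRCh38.p14, the first listed start of each gene) were matched for 178 of the 205 members by gene ID. For each cluster with at least 10 promoters the 12-letter word present in the most of them, read on the gene's strand, was found. Where words tied, the rarest among all promoters was taken. The word was picked from these same promoters, so its share in its cluster and its rarity elsewhere are partly set by the choice. In C4 the word was TCCAATCAGGCA, held by 13 of 20 promoters and by none of the 158 other members. Of 27305 promoters in all, 26 held it (0.0952%), the 13 included. It began 30 to 59 bases before the start. The following stretches, chosen as examples, show the word in capitals with the bases around it. Those of C4 and those of C11 also match outside the word. Those shown of C2 match little outside it, but those of ZNF121, ZNF561 and ZNF562 in C2, not shown, match each other on both sides of it. C9 is shown by 1 promoter. Not all C4 promoters match as closely as the C4 stretches shown, and those of ZNF429 and ZNF675, not shown, differ before the word.
ZNF486 (C4, chr19:20167132-20167191, plus strand): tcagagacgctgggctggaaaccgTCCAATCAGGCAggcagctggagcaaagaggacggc
ZNF431 (C4, chr19:21141957-21142016, plus strand): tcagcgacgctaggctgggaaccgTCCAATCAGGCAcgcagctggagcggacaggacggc
ZNF43 (C4, chr19:21836206-21836265, minus strand): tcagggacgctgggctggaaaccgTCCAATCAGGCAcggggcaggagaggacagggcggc
ZNF91 (C4, chr19:23395495-23395554, minus strand): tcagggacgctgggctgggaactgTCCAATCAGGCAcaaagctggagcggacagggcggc
ZNF419 (C11, chr19:57487702-57487761, plus strand): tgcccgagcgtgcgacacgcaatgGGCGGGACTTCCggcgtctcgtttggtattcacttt
ZNF773 (C11, chr19:57499838-57499897, plus strand): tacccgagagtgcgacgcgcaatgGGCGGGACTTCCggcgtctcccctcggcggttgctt
ZNF560 (C2, chr19:9498604-9498663, minus strand): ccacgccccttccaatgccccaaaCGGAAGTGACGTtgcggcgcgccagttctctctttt
ZNF266 (C2, chr19:9435561-9435620, minus strand): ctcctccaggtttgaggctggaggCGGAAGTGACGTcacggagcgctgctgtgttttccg
ZNF83 (C9, chr19:52690520-52690579, minus strand): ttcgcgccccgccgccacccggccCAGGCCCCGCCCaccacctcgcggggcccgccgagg

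The word of C11, GGCGGGACTTCC, stood in 13 of 35 promoters of the cluster, in 1 of 143 other members and in 0.209% of all promoters. That of C9, CAGGCCCCGCCC, stood in 12 of 31, in 2 of 147 others and in 0.703% of all promoters, and that of C2, CGGAAGTGACGT, in 5 of 12, in none of 166 others and in 0.143%. In C3 the word was CCAATCAGGGGC (7 of 17 promoters) and in C8 GGAATTCTGGGA (6 of 15). C6 and C10 shared less, with 4 of 20 and 2 of 13 promoters holding the commonest word. Levels did not divide by the word in one way. The median of the members' mean FPKM was 2.41 with it and 1.85 without it in C4, 3.40 and 2.55 in C9, 4.18 and 3.70 in C11, and 1.82 and 2.43 in C8.

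Short words of known promoter elements were then counted on both strands. The word CCGGAAG, the core bound by ETS factors, stood in 48.3% of members' promoters (86 of 178). It stood in 34.1% of 214 promoters of ZNF genes on other chromosomes, which unlike the members were taken whatever their level. It stood in 19.7% of those of 10327 genes with at least 1 FPKM and in 10.7% of all promoters. The CCAAT box, CCAAT, stood in 51.1% of members' promoters, 43.5% of other ZNF promoters and 36.8% of those of expressed genes. It lies inside the C4 and C3 words, so part of this share is the duplicated sequence. The same holds for the ETS word. The C11 word ends in CTTCC, and in ZNF419, ZNF773 and other C11 promoters the next bases complete CTTCCGG, the ETS word on the reverse strand. The GC box, GGGCGG, was about as common in members (67.4%) as in expressed genes (70.3%). The word TATAAA stood in 2.2% of members' promoters and 5.7% of those of expressed genes. A match is a description of the letters and not a bound site.

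The clusters also differed in CG dinucleotides, which are dense in the unmethylated islands at many promoters. Members had a median of 21 CG per 300 bases, from 2 to 42. The median was 24 in ZNF promoters of other chromosomes, taken whatever their level, and 26 in promoters of expressed genes. C4 had the lowest median of the clusters with 10 or more promoters, 10, with no promoter above 18. C10 had the highest, 30, with a range of 15 to 42, and C9 had 25. Over the 178 members the Spearman correlation between CG number and log2 mean FPKM was 0.26, a description across genes that share ancestry and libraries.

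**Figure D1:**
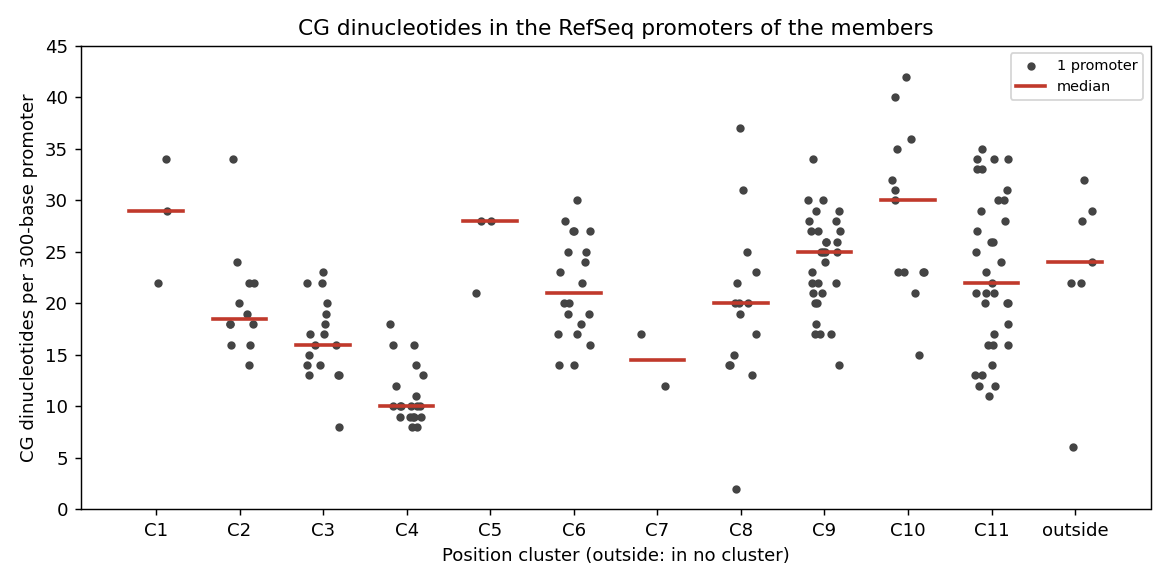
CG dinucleotides per 300-base RefSeq promoter (vertical axis), by position cluster (horizontal axis), with 1 point for each of 178 members and a red line at each median. The C4 promoters lie at 8 to 18 and the C10 promoters at 15 to 42.

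The members were expressed at low levels in all 3 populations. Their median was 2.63 FPKM in vehicle, 3.02 in erlotinib-resistant and 2.44 in dual-resistant cells, against 10.1, 10.5 and 10.5 FPKM over all compared genes. ZNF genes on other chromosomes had medians of 4.56, 4.75 and 4.29 FPKM. A mean under 5 FPKM was found for 153 of the 205 members, and a mean of 10 FPKM or more for 20. By RefSeq biotype, 199 members were protein-coding and 6 transcribed pseudogenes, among them ZNF702P in C9, which stood at 14.7, 16.9 and 18.9 FPKM.

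The highest levels were concentrated in C10. Its members had a median of 9.58 FPKM in vehicle, 8.55 in erlotinib-resistant and 7.61 in dual-resistant cells, against 1.84 to 4.07 FPKM in vehicle for C3, C4, C6, C8, C9 and C11 and 6.58 for C2. ZNF581 (Entrez ID 51545, 56146825 to 56156989, GRCh37) stood at 49.5, 52.3 and 43.2 FPKM. ZNF787 stood at 45.4, 44.7 and 31.7 FPKM. Both were lowest in the dual-resistant library. ZNF580, whose row lies inside that of ZNF581, stood at 25.3, 24.9 and 24.8 FPKM, among the smallest ranges of members with a mean of 5 FPKM or more. Reads from stretches in the exons of both genes may not be told apart. Of the 50-base words in the transcript of ZNF581, 16.1% occur in ZNF580. For the transcript of ZNF580, 0.0% occur in another gene. ZNF579 stood at 30.6, 31.4 and 22.4 FPKM. ZNF444, a SCAN domain zinc finger gene, stood at 35.1, 21.5 and 24.6 FPKM and was highest in vehicle.

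Members with high levels were also found outside C10. ZNF358 (Entrez ID 140467, 7581004 to 7585911), in no cluster, had the highest mean of all members, at 72.1 FPKM in vehicle, 36.4 in erlotinib-resistant and 53.0 in dual-resistant cells. In the erlotinib-resistant library ZNF581, ZNF146 and ZNF787 stood above it. Taken as FPKM + 1, the level of ZNF358 was 1.95-fold lower in the erlotinib-resistant than in the vehicle library, just within the 2-fold limit. With the libraries scaled to the same median it was past the limit, at a log2 difference of -1.04. ZNF146 in C6 (Entrez ID 7705), which encodes a protein made up almost wholly of fingers, stood at 42.2, 45.8 and 46.3 FPKM, and the other C6 members had a far lower level, with a cluster median of 1.87 FPKM in vehicle.

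The small clusters and C4 held no member near those levels. ZNF626, the highest member of C4, stood at 7.20, 9.24 and 7.75 FPKM in vehicle, erlotinib-resistant and dual-resistant cells. ZNF302 led C5, at 5.93, 6.43 and 6.77 FPKM, and ZNF780A led C7, at 3.33, 5.44 and 3.96 FPKM. ZNF57 led C1, at 2.03, 2.47 and 2.14 FPKM. The members with the largest range in C1 and C5 still varied little, with ZNF77 at 1.71, 2.10 and 1.49 FPKM and ZNF30 at 1.39, 2.00 and 1.5 FPKM. ZNF776 in C11 was among the steadiest members with a mean of 5 FPKM or more, at 5.08, 5.03 and 5.15 FPKM.

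**Figure D2:**
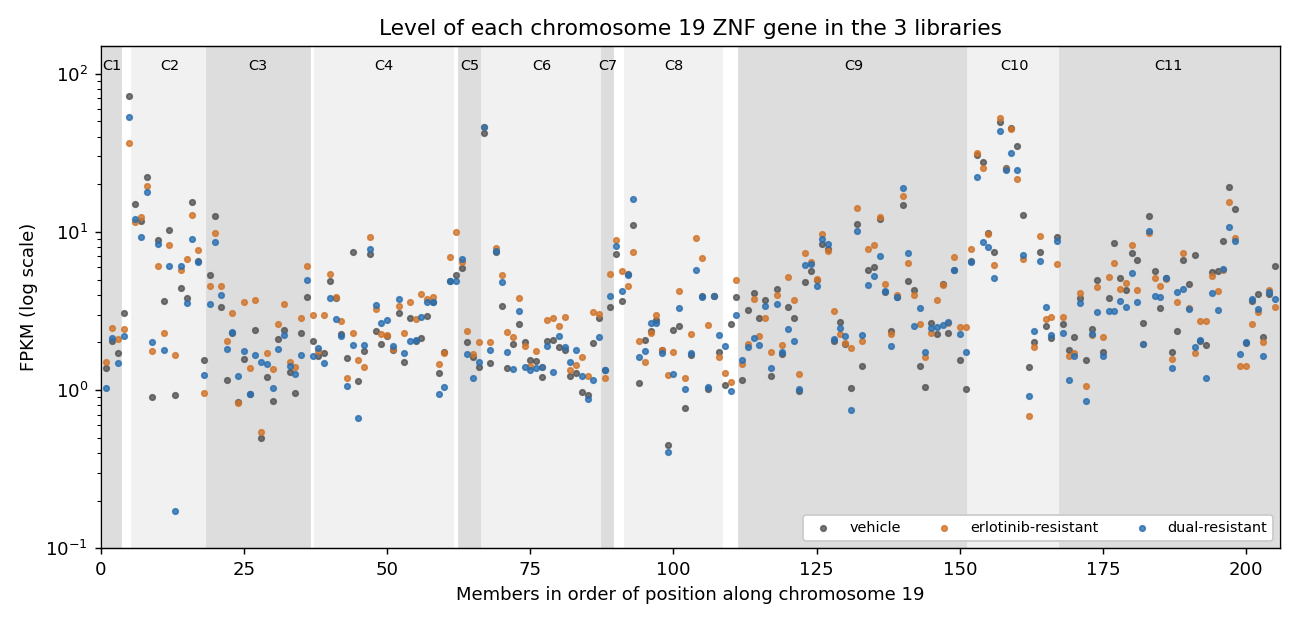
FPKM on a log scale (vertical axis) for each of the 205 members in order of position along chromosome 19 (horizontal axis), coloured by library, with the clusters shaded and a value of 0 left out. Most members lie under 5 FPKM in every library, and ZNF581 and ZNF787 in C10 stand above 30 FPKM in all 3.

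Differences between libraries were taken as log2 of FPKM + 1, a scale that understates the differences of low genes, and a call of higher or lower rested on size only, a difference of 2-fold or more. Every fold given in the text is a ratio of FPKM + 1 and not of FPKM. The first comparison asked what set the erlotinib-resistant population apart from vehicle-treated cells. Of 204 members with a value in both libraries, 1 was higher and 2 were lower (1.47%). Over all 13381 genes compared, 9.84% were past the limit, 3.81% higher and 6.03% lower. The median difference of the members was 0.12, and 132 of the 204 lay above 0, against a median of 0.00 and 50% above 0 over all genes.

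The second comparison set the dual-resistant population against the erlotinib-resistant one it came from. Of 205 members, 1 was higher and 2 were lower (1.46%), where 17.4% of 13385 genes were past the limit, 10.1% higher and 7.22% lower. The median was -0.19 and 150 of 205 members lay below 0, against -0.03 over all genes. ZNF genes on other chromosomes had a median of -0.15, with 143 of 227 below 0, and other genes inside the clusters -0.12, with 42 of 65 below 0. With a pseudocount of 0.1 FPKM, 2 members were higher and 13 lower, and 23.2% of all genes were past the limit. Of these members, ZNF788 (higher), ZNF560 and ZNF284 (both lower) reached 1 FPKM in 1 library alone, so their directions were fixed by selection.

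In the third comparison, of the dual-resistant population with vehicle-treated cells, 1 of 204 members was higher and 4 were lower (2.45%), where 21.4% of 13378 genes were past the limit, 11.0% higher and 10.4% lower. The median of the members was -0.07, and 0.12 with the libraries scaled to the same FPKM sum, which moved the median of all genes from -0.01 to 0.22. Against the median of all genes the members thus lay at -0.06 as deposited and -0.10 when scaled. That scaling changed the members' calls to 2 higher and 3 lower. The comparisons share libraries pairwise and are not independent of each other.

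The members' small differences were set beside those of genes at the same level, since low values shrink on this scale. At a mean of 2 to 5 FPKM, 2 of 89 members (2.25%) were past 2-fold between the erlotinib-resistant and vehicle libraries, as were 12.4% of 2107 genes. Between the dual-resistant and erlotinib-resistant libraries it was none of the 89 members and 23.6% of those genes. At a mean under 2 FPKM, 1 of 64 members was past 2-fold in each of the 3 comparisons, against 14.9%, 25.5% and 30.4% of 1945 genes. At 10 FPKM or more, where the scale shrinks little, 2 of 20 members (10%) were past 2-fold between the dual-resistant and erlotinib-resistant libraries, close to the 13.6% of 6940 genes. In that band it was none of the 20 against 7.75% of genes between erlotinib-resistant and vehicle, and 1 of 20 against 17.7% between dual-resistant and vehicle. Over all levels 154 of 204 members (75.5%) stayed within 1.5-fold in every comparison, as did 42.6% of 13365 genes.

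ZNF genes on other chromosomes had 13, 13 and 18 of 227 past 2-fold in the 3 comparisons (5.73%, 5.73% and 7.93%). At a mean of 2 to 5 FPKM they had 3, 1 and 4 of 83 (3.61%, 1.2% and 4.82%), beside 2, 0 and 2 of 89 members. Under 2 FPKM they had 2, 4 and 4 of 34 (5.88%, 11.8% and 11.8%). At 5 to 10 FPKM they had 3, 5 and 7 of 69 (4.35%, 7.25% and 10.1%), beside 0, 0 and 1 of 31 members. Of all 2373 genes in that band, 9.52%, 16% and 20.6% were past 2-fold. At 10 FPKM or more the ZNF genes on other chromosomes had 5, 3 and 3 of 41 (12.2%, 7.32% and 7.32%). Steadiness at 2 to 5 FPKM was thus not particular to chromosome 19. Genes with other symbols lying inside the same position clusters, some of them zinc finger genes such as ZFP112 and ZSCAN5A, had 4, 7 and 12 of 65 (6.15%, 10.8% and 18.5%). No test of these differences between groups of genes can be had from 1 library per group.

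**Figure D3:**
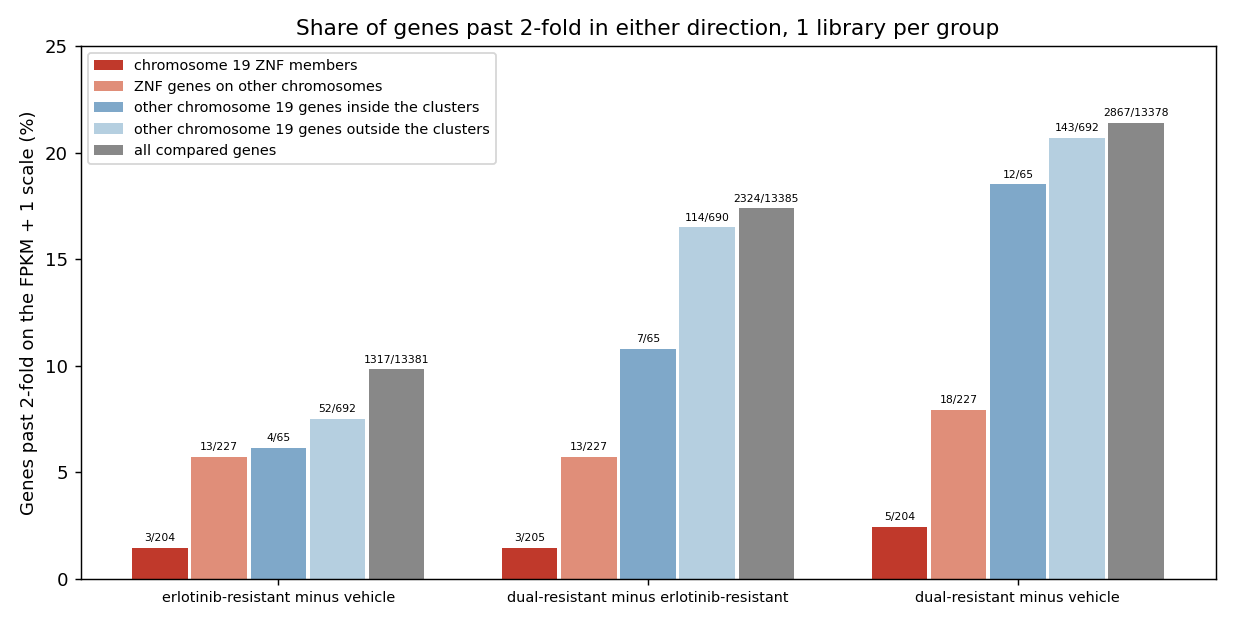
Percentage of genes past 2-fold in either direction on the FPKM + 1 scale (vertical axis) in the 3 comparisons (horizontal axis), with bars for the members and 4 other groups of genes and the counts above them. The members' bars stand at 1.47%, 1.46% and 2.45%, and those of all compared genes at 9.84%, 17.4% and 21.4%.

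Although few members passed the limit, the order of the libraries differed by cluster. As deposited, 107 of 204 members (52.5%) were highest in the erlotinib-resistant library, 61 in vehicle and 36 in the dual-resistant library, where 29.9%, 34.2% and 35.9% of all compared genes were highest in the erlotinib-resistant, vehicle and dual-resistant libraries. The erlotinib-resistant library was highest for 14 of 18 members of C3, 16 of 21 of C6, 10 of 16 of C8 and 14 of 24 of C4. The vehicle library was highest for 22 of 38 members of C11, 9 of 16 of C10 and 7 of 13 of C2. It was also highest for 44.6% of 65 genes with other symbols inside the clusters. Among 689 other genes of chromosome 19 outside them it was highest for 43.8%. The members' counts include those that reached 1 FPKM in 1 library alone, whose highest library was set by the selection. For the erlotinib-resistant library these were ZNF433 (C3), ZNF793 (C6), ZNF284 (C8) and ZNF560 (C2). For the dual-resistant library they were ZNF69 and ZNF788 (both C3), and for vehicle ZNF582 (C10).

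Scaling the libraries to the same FPKM sum left the erlotinib-resistant library highest for 13 of 18 in C3 and 15 of 21 in C6. In C11 it changed the counts to 15 highest in vehicle and 16 in the erlotinib-resistant library, and in C10 to 4 and 8. That scaling also lowered the share of all compared genes highest in vehicle from 34.2% to 22.6%, beside 39.5% in C11 and 25% in C10. With the libraries scaled to the same median, 25 of 38 members of C11 and 10 of 16 of C10 were highest in vehicle, beside 38.3% of all compared genes.

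Cluster medians in the erlotinib-resistant against the vehicle library ran from -0.19 in C2 to 0.29 in C3 among the 8 clusters with at least 10 members. C6 stood at 0.20, C9 at 0.19, C4 at 0.13, C8 at 0.04, C10 at -0.02 and C11 at -0.10. Genes with other symbols inside these clusters, 5 to 17 in each, had medians of -0.43 in C2, -0.48 in C10 and -0.22 in C11. In C3, C4, C6, C8 and C9 their medians were -0.27, 0.32, 0.18, -0.03 and -0.19. Within 1 cluster the members' quartiles lay apart by 0.25 to 0.67. Whether the cluster medians differ was not tested. With the libraries scaled to the same sum, which moved all genes by 0.14, C2 stood at -0.02 and C3 at 0.38, and C10 and C11 turned to 0.14 and 0.03.

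In C3 the members above 0 numbered 15 of 18. ZNF700 stood at 1.57, 3.62 and 1.76 FPKM in vehicle, erlotinib-resistant and dual-resistant cells, the largest range in that cluster. The best expressed member of C3, ZNF627, went another way, at 12.7, 9.89 and 8.58 FPKM. In C6 the members above 0 numbered 19 of 21. ZNF571, whose 2 rows were summed, had the largest range there, at 1.99, 3.13 and 1.15 FPKM. ZNF260 in the same cluster hardly varied, at 7.42, 7.88 and 7.61 FPKM.

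Between the dual-resistant and the erlotinib-resistant library the clusters lay close together, with medians from -0.23 in C2 to -0.12 in C9, all below 0 among those of at least 10 members. In C9, the cluster with the most members, 12 of 40 lay above 0. ZNF841 had its largest range, at 3.34, 5.18 and 2.42 FPKM. ZNF528 in C9 varied little, at 7.82, 7.61 and 8.42 FPKM. At a limit of 1.5-fold, 27 of 205 members were lower and 2 higher in this comparison (14.1%), beside 35.4% of all genes, 2473 higher and 2266 lower. The 27 included 7 of the 40 members of C9 and 4 of the 17 of C8. Among the 27 were ZNF560 and, in C8, ZNF284, which passed the level limit through the erlotinib-resistant library alone. Among the 2 higher, ZNF788 passed it through the dual-resistant library alone. The directions of these members were fixed by selection.

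Between the dual-resistant and vehicle libraries C11, C2 and C10 had the lowest medians, -0.29, -0.30 and -0.22, and C3, C4, C6, C8 and C9 lay between 0.01 and 0.09. Against the median of all genes, the first 3 stood at -0.28, -0.29 and -0.21 as deposited and at -0.32, -0.27 and -0.19 with the libraries scaled to the same sum. Genes with other symbols inside C11, C2 and C10 had medians of -0.10, -0.98 and -0.27. Inside C3, C4, C6, C8 and C9 their medians were -0.44, 0.32, 0.05, -0.25 and -0.01. In C11, 8 of 38 members lay above 0, and in C2, 2 of 13. ZNF274 in C11 (Entrez ID 10782), which encodes a KRAB zinc finger protein known to bind the 3′ ends of other zinc finger genes together with SETDB1, stood at 19.1, 15.5 and 10.8 FPKM, a difference of 1.71-fold between dual-resistant and vehicle cells. ZNF317, the highest member of C2, stood at 22.4, 19.5 and 17.8 FPKM.

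**Figure D4:**
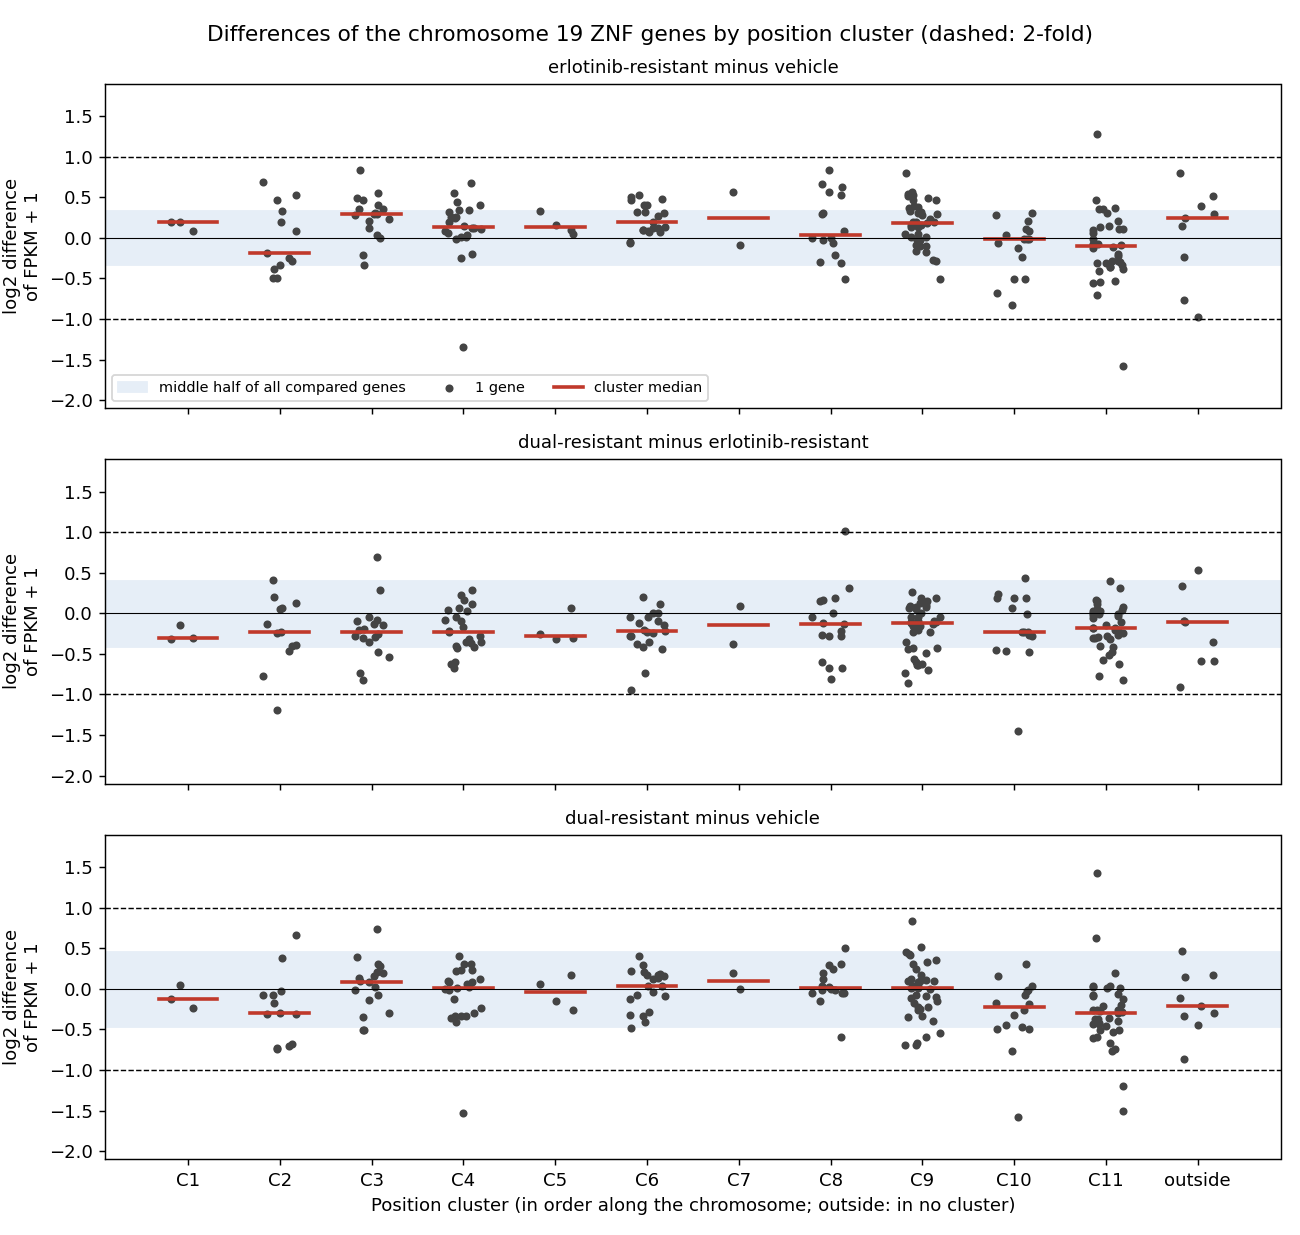
Log2 difference of FPKM + 1 (vertical axis) for each member, by position cluster (horizontal axis), in the 3 comparisons, with red lines at the cluster medians, a band between the quartiles of all compared genes and dashed lines at 2-fold. Most points lie within the band, and the points past a dashed line are 3, 3 and 5 members.

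The 7 members past 2-fold in any comparison (3.41% of the 205, against 28.7% of all compared genes) came from 5 clusters. ZNF486 in C4 (Entrez ID 90649, 20278083 to 20308984, GRCh37) stood at 7.42 FPKM in vehicle, 2.30 in erlotinib-resistant and 1.93 in dual-resistant cells. It was 2.55-fold and 2.88-fold lower in the resistant libraries than in vehicle, on about 1920, 415 and 319 fragments. Its promoter holds the C4 word shown above, as do those of ZNF43, at 2.15, 4.03 and 2.90 FPKM, and ZNF91, a repressor of SVA retrotransposons, at 2.95, 3.74 and 3.61 FPKM. ZNF43 and ZNF91 were lowest in the vehicle library and ZNF486 was highest there. Only 6.0% of the 50-base words in the transcript of ZNF486 occur in another gene.

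ZNF814 in C11 (Entrez ID 730051, 58360099 to 58400442) went the same way, at 7.13, 1.72 and 1.87 FPKM. On the FPKM + 1 scale it was 2.98-fold and 2.83-fold lower in the resistant libraries than in vehicle. Its row overlaps that of ZNF587, which stood at 2.36, 3.63 and 4.20 FPKM, lowest in vehicle. Of the 50-base words of ZNF814, 27.0% occur in another gene, and of those of ZNF587, 37.9%. How the authors' programs divided reads between them is not given in the sources used here, so both values are uncertain. The promoters of ZNF486 and ZNF814, the 2 members lower in the erlotinib-resistant library, are shown from 250 bases before the start up to it, with the GC box, the ETS word and the CCAAT box named above in capitals on either strand.
ZNF486 (chr19:20166964-20167213, GRCh38.p14, plus strand): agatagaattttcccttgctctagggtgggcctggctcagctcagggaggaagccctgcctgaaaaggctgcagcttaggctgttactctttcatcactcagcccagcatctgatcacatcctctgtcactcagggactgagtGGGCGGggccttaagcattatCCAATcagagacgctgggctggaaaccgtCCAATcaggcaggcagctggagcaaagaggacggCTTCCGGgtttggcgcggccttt
ZNF814 (chr19:57889038-57889287, GRCh38.p14, minus strand): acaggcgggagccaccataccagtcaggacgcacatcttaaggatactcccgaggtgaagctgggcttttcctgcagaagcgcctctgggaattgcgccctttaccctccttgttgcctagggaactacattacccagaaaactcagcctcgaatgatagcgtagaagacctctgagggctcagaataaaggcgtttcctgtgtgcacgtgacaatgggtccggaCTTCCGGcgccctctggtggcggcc
Both hold 1 ETS word on the reverse strand near the start. Within these 250 bases ZNF486 also has 2 CCAAT boxes and 1 GC box, and ZNF814 has neither. The 300-base promoter of ZNF814, which runs past the start, does hold a CCAAT box.

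ZNF524 in C10 (Entrez ID 147807, 56111730 to 56114504) stood at 27.7 FPKM in vehicle, 25.2 in erlotinib-resistant and 8.59 in dual-resistant cells. The vehicle and erlotinib-resistant values were close and the dual-resistant value was 2.73-fold below the erlotinib-resistant one, on about 2360, 1490 and 467 fragments. It overlaps FIZ1, which stood at 13.3, 9.24 and 8.66 FPKM. ZNF419 in C11 (Entrez ID 79744, 57999079 to 58006048) was lower at each step, at 8.54, 6.35 and 3.16 FPKM, 2.29-fold lower in dual-resistant than in vehicle cells. With the libraries scaled to the same sum its log2 difference was -0.97, within the limit. ZNF773, which shares the C11 promoter word and 8.6% of the 50-base words of ZNF419, stood at 5.12, 4.33 and 3.65 FPKM.

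ZNF560 in C2 (Entrez ID 147741, 9577031 to 9609279) stood at 0.937, 1.66 and 0.171 FPKM. On the FPKM + 1 scale, which shrinks such low values, it was 2.27-fold lower in the dual-resistant than in the erlotinib-resistant library. It passed the level limit through the erlotinib-resistant library alone, so its direction is fixed by its selection, and it rests on about 168, 207 and 19.5 fragments. ZNF428 in C8 (Entrez ID 126299, 44111376 to 44124014) was the only member more than 2-fold higher in the dual-resistant than in the erlotinib-resistant library, at 11.1, 7.52 and 16.2 FPKM, a 2.02-fold difference. It overlaps ZNF576, which stood at 5.39, 4.54 and 5.34 FPKM.

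ZNF8 in C11 (Entrez ID 7554, 58790318 to 58827013) was the only member listed at 0 in a library. It was listed at 0 in vehicle and stood at 1.42 FPKM in erlotinib-resistant and 1.69 in dual-resistant cells, and no fold is given. Such a zero may also mean that no estimate was made. An overlapping row with no gene symbol of its own stood at 54.9, 25 and 23.1 FPKM, and another stood at 0, 1.88 and 2.84 FPKM, with a 0 in vehicle as for ZNF8. Reads from stretches that ZNF8 shares with these rows may not be told apart, and their exons were not compared. Of the 50-base words in the transcript of ZNF8, 22.8% occur in another gene. Without ZNF8 no member was past 2-fold higher than vehicle in either resistant library, on the FPKM + 1 scale as deposited. With the libraries scaled to the same FPKM sum, ZNF347 was 2.02-fold higher in dual-resistant cells. With a pseudocount of 0.1 FPKM, 5 members were higher in the erlotinib-resistant and 4 in the dual-resistant library, ZNF8 included. Over all genes it was 856 of 13381 and 1894 of 13378. ZNF284 among the 5 and ZNF788 among the 4 had their direction fixed by selection.

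**Figure D5:**
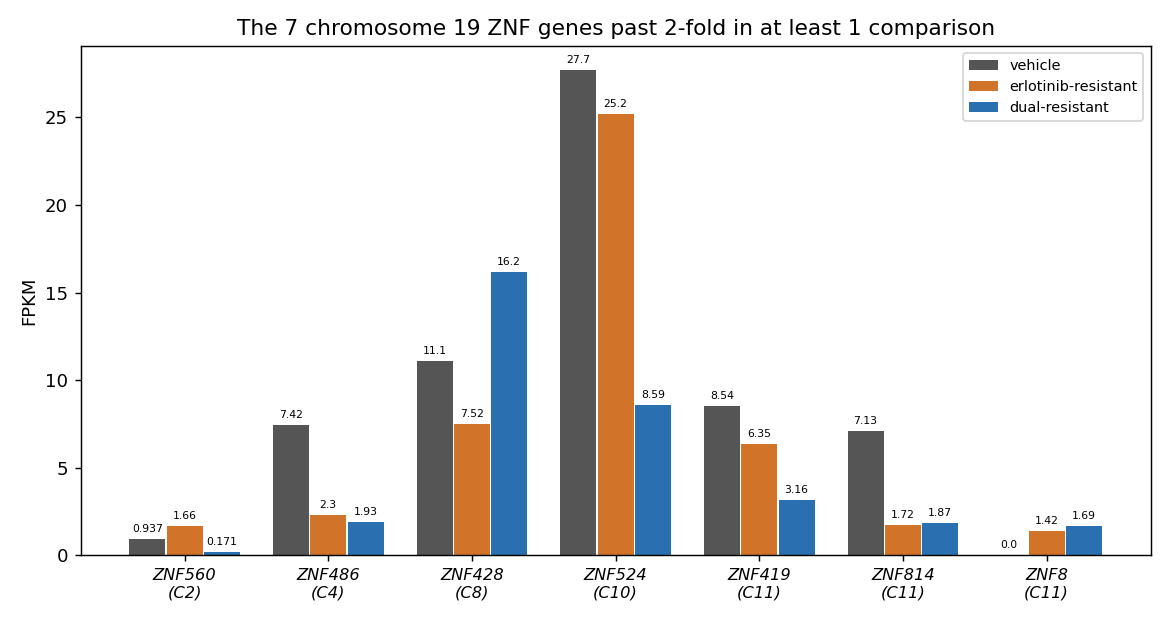
FPKM (vertical axis, from 0) of the 7 members past 2-fold in at least 1 comparison (horizontal axis, with their cluster), with 1 bar per library. ZNF486 and ZNF814 are high in vehicle alone, and ZNF524 is low in dual-resistant cells alone.

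A few members near the limit completed the picture. ZNF507, in no cluster, stood at 5.31, 9.99 and 4.86 FPKM, and ZNF285 in C8 at 1.01, 2.58 and 1.05 FPKM. Both were highest in the erlotinib-resistant library and close between the other libraries. ZNF347 in C9 was lowest in vehicle, at 1.42, 2.60 and 3.31 FPKM. ZNF542 in C10, a pseudogene by RefSeq, was highest in vehicle, at 12.8, 6.79 and 7.14 FPKM. These 4 were chosen after their values were seen. ZNF226 had no value in vehicle and stood at 9.20 and 5.73 FPKM in the other libraries.

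The duplicated sequence limits single values. Of 203 members matched to a GENCODE transcript, 24 shared 25% or more of their 50-base words with another gene and 114 shared under 5%. ZNF320 and ZNF468 in C9 shared 99.5% and 99.2%, mostly with each other, and stood at 4.20, 4.71 and 4.24 FPKM and at 12, 12.5 and 7.07 FPKM. Their separate levels are therefore uncertain. Another row with at least 1 FPKM overlapped 46 of the 205 members.

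The cofactors through which KRAB zinc finger proteins act spanned a wide range of levels. TRIM28 stood at 202, 173 and 189 FPKM in vehicle, erlotinib-resistant and dual-resistant cells, and SETDB1 at 10.7, 16.3 and 12.4 FPKM. SUV39H2, a histone methyltransferase, stood at 2.16, 2.18 and 2.78 FPKM. Of 26 cofactors and silencing factors, 2 were higher and none lower in the erlotinib-resistant than in the vehicle library, with a median log2 difference of 0.28, where 3.81% of all genes were higher and 6.03% lower. CBX1, an HP1 protein, was 2.10-fold higher, at 58.0 FPKM against 27.1, and DNMT3B, a DNA methyltransferase, 2.13-fold higher, at 5.68 against 2.14. Between the dual-resistant and erlotinib-resistant libraries none of the 26 was past 2-fold (median 0.07), where 17.4% of all genes were. Against vehicle, CBX1 alone of the 26 was past the limit in dual-resistant cells, at 85.7 FPKM, where 21.4% of all genes were. The HUSH complex genes FAM208A (12, 22.7 and 14.2 FPKM), MPHOSPH8 (9.32, 11.8 and 15.8 FPKM) and PPHLN1 (34.9, 23.8 and 32.9 FPKM), whose products silence transposable elements, lay within the limit. FAM208A and MPHOSPH8 were lowest in vehicle, and PPHLN1 was lowest in the erlotinib-resistant library.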

How the data were processed

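RNA sequencing libraries of 3 populations, 1 per group, were compared. The authors deposited 1 table whose header names no unit. The deposited values were taken as FPKM because the authors used Cufflinks, per the submitters' processing notes, which gives that unit, and because they are decimals on no log scale. Per the submitters' processing notes, TopHat 1.3, Cufflinks 1.3 and the GRCh37 build were used. Which annotation, strand setting and options went into them is not given in the sources used here, and depth is known only from the estimate in the text. Table starts count from 0 (3995 rows then match the length of their RefSeq gene, 439 otherwise) and are printed from 1.

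With Python 3.11.15 and pandas 2.3.3, rows sharing a symbol were summed (among members only ZNF571), and log2(FPKM + 1) differences were taken over genes with at least 1 FPKM in a library. Calls used size alone, and the calling code was tested on simulated data. Transcript words came from GENCODE 29, with the longest transcript of each gene, protein-coding ones first, and promoters from RefSeq. Protein features were not analysed here. Alternatives were other pseudocounts, scalings, filters, limits and gaps. Genes named were all members past 2-fold or listed at 0, the 8 highest, the highest and most variable of each cluster, the 5 least variable with a mean of 5 FPKM or more, cofactors past the limit, TRIM28 and SETDB1. Others named (the shared-sequence, overlap and promoter examples, ZNF226, HUSH genes) were chosen after values were seen. Members and lists were chosen with earlier results of these data known.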

Additional observations from a re-analysis of the deposited data

How the results depend on the processing

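With 1 library per group there is no error estimate. No paired analysis was possible because no group has a second library. Gaps of 250 kb and 1 Mb gave 14 and 10 position clusters in place of 11. The direction of the members' median held under each scaling, except in the last comparison. In the order erlotinib-resistant against vehicle, dual-resistant against erlotinib-resistant, and last dual-resistant against vehicle, the counts that moved were as follows. A pseudocount of 0.1 FPKM gave 5, 2 and 4 members higher and 3, 13 and 6 lower, beside 15.2%, 23.2% and 27.4% of all genes. A limit of 1.5-fold gave 9, 2 and 5 higher and 7, 27 and 20 lower, beside 26.7%, 35.4% and 41.2% of all genes. Scaling to the same FPKM sum gave medians of 0.24 in the first and 0.12 in the last comparison. It gave 2 higher and 3 lower in the last, beside 23.2% of all genes. Scaling to the same median gave 1 higher and 3 lower in the first, beside 9.96% of all genes. Members with a mean of 1 FPKM had 1 lower in the second. Those with a mean of 5 FPKM had 0 higher and 0 lower in the first, 1 lower in the second, and 0 higher, 2 lower and a median of -0.17 in the last. Leaving out the member listed at 0 gave 0 higher in the first and last. These smaller sets hold fewer genes. The cause of the other shifts was not tested. Of 270 values of named members under other pseudocounts and scalings, none of those past the limit turned, 1 fell within it and 6 passed it.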
